A study of Mus musculus with 8 samples.

Results

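The genes described here present antigen to T cells through the major histocompatibility complex (MHC, called H2 in mice) and its relatives. They were chosen from the array's annotation as the probe sets with a single gene symbol that starts with H2-, or with the symbol of a fixed set of partners (B2m, Ciita, Nlrc5, Tap1, Tap2, Tapbp, Tapbpl, Erap1, Cd1d1, Mr1, Ifi30, Calr, Canx and Pdia3), and a gene with several such probe sets was read from the brightest on average over the 8 arrays. This gave 48 of the 22180 genes with a single symbol, and all 48 had a value on every array. They were 11 class I genes, 12 class II genes, 23 nonclassical genes and 2 others. These 2, H2-Ke6 and H2-Pb, have an H2- symbol but were put in none of these classes. Cd74, the class II invariant chain, and H2-D1, the other classical class I heavy chain of this strain, had no probe set of their own and were not analysed here. A further 7 probe sets carried several symbols, at least 1 of them of the H2 family, and were left out of the 48, since Q and T region genes are close copies of each other and can share probes. For the same reason the values of single Q and T region genes are uncertain.

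Splenic dendritic cells (DCs) of C57BL/6 mice aged 8 weeks were profiled with Mouse Gene 2.0 ST arrays of Affymetrix, as log2 signals. There were 3 arrays for Lkb1f/f mice (WT DCs) and 3 for Cd11cCreLkb1f/f mice (Lkb1-deficient DCs). There was also 1 array labelled as untreated wild-type control and 1 for mice given LPS overnight, which the labels call wild type and a legend of the study calls Lkb1f/f. Lkb1 is a kinase, encoded by Stk11, and LPS is a bacterial cell wall component that activates DCs through Toll-like receptor 4. Cre is driven by the promoter of Cd11c (Itgax), which macrophages that make CD11c can also use. The gate for the array samples is not stated. Elsewhere in the study splenic DCs were sorted by CD11c and surface MHC class II, so if that gate was used, class II protein was among its criteria. Nothing in the labels says that each array is a separate mouse, so the spread between arrays may be technical.

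Class I molecules are a heavy chain with β2-microglobulin, and they show peptides from the cytosol to CD8+ T cells after transport by TAP and loading by tapasin, calreticulin and ERp57. Class II molecules are pairs of an alpha and a beta chain that show peptides from endosomes to CD4+ T cells. H2-DM exchanges their peptides and H2-O restrains H2-DM. NLRC5 and CIITA are the transactivators of class I and class II genes, respectively, and DCs are known to present on both classes and to lower class II synthesis as they mature. Nonclassical molecules show lipids, vitamin B metabolites, formylated peptides or leader peptides, and the function of several is unknown.

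The stretches of DNA before the transcription starts of 9 members are shown first, because class I and class II promoters are known to share a module with a Y box, while class I promoters also carry NF-κB and interferon elements. Promoters came from RefSeq on mouse build GRCm38.p6, which held 37 starts for 34 of the 48 members. The 250 bases before each start were searched on both strands for the Y box of class II promoters (CCAAT, which reads ATTGG on the other strand), for an interferon-stimulated response element (GAAA, 2 bases of any kind and GAAA) and for a form of the NF-κB site (GGG, 5 bases of any kind and CC). The last 150 bases before the start are printed 5′ to 3′ on the gene's strand, with every match that begins in them in capitals. In the class II genes the capitals ATTGG are the Y box.
H2-Oa, chr17:34092229-34092378, plus strand: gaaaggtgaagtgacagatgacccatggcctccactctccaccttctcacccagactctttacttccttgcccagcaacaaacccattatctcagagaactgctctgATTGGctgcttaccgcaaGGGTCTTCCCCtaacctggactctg
H2-Ob, chr17:34238755-34238904, plus strand: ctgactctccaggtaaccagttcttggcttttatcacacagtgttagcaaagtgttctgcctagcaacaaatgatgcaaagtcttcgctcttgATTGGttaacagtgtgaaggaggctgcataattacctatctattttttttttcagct
H2-DMb1, chr17:34153041-34153190, plus strand: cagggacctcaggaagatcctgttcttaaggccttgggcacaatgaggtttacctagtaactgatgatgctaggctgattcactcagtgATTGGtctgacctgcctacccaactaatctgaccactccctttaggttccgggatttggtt
H2-DMb2, chr17:34145099-34145248, plus strand: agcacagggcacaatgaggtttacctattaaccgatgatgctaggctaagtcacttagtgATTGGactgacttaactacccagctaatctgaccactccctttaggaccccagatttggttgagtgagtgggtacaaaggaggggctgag
H2-Aa, chr17:34287824-34287973, minus strand: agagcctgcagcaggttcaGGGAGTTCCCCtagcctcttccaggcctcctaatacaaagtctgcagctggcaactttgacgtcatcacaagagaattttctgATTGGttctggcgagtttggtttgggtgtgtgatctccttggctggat
H2-Eb1, chr17:34305717-34305866, plus strand: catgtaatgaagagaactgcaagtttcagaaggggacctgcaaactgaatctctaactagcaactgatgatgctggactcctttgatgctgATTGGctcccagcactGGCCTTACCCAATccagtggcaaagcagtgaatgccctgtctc
H2-K1, chr17:34000348-34000497, minus strand: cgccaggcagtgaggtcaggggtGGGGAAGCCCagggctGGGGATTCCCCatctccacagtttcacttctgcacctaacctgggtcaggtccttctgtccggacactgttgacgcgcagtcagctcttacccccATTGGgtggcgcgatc
B2m, chr2:122147537-122147686, plus strand: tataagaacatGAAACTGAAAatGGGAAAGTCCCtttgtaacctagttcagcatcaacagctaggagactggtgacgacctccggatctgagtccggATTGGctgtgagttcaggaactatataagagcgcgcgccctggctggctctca
Tap1, chr17:34187406-34187555, plus strand: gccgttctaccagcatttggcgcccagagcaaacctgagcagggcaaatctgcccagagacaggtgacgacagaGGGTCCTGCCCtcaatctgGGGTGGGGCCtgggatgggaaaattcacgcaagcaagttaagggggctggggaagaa

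The Y box read as ATTGG lay 43 bases before the start in H2-Oa, 57 in H2-Ob, 61 in H2-DMb1, 90 in H2-DMb2, 48 in H2-Aa and 59 in H2-Eb1. Counted by first listed start, 7 of 9 class II promoters, 4 of 8 class I promoters and 5 of 16 nonclassical promoters held it in this orientation, beside 19.7% of all 32851 promoters. On either strand the Y box was in 7 of 8 class I, 7 of 9 class II and 13 of 16 nonclassical promoters. Of all promoters 33.8% held it on either strand, so counted on both strands it did not set the classes apart. H2-DMa at its first listed start and Ifi30 were the class II promoters without it, and the second listed start of H2-DMa had it 198 bases upstream. The NF-κB form was in 5 of 8 class I, 6 of 9 class II and 5 of 16 nonclassical promoters, beside 45.8% of all promoters, so it did not set the classes apart in these windows. In H2-K1 it began 227, 127, 111 and 110 bases before the start, the last pair overlapping and the first outside the printed stretch. The response element was found before 1 class I gene, B2m, where it began 139 bases before the start, and before 1 nonclassical gene, H2-T23, beside 2.98% of all promoters. In H2-Eb1 a CCAAT on the gene's strand overlaps an NF-κB match. H2-K1 has 2 listed starts, and the upstream one is shown. A match is a run of letters and was not tested as a binding site.

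Across the 6 WT and Lkb1-deficient arrays the median log2 value was 4.64, 4.09 and 3.40 in WT DCs of replicates 1, 2 and 3 and 4.59, 4.07 and 3.35 in Lkb1-deficient DCs, so the replicate number went with the level of an array more than the genotype did. KO minus WT is therefore given within each number, where KO stands for Lkb1-deficient. Stk11 read 6.73, 6.83 and 5.96 in WT DCs and 6.67, 6.41 and 5.55 in Lkb1-deficient DCs (limma, adjusted p = 1), and no source says where its probes sit relative to the deleted exons, so it does not check the labels. Of 17 listed names of DC markers, which include both Dcir2 and Clec4a4 for 1 gene, 15 matched a probe set. All 15 were above the median of every array except the LPS array, where 13 were. Some genes of B cells, macrophages, T cells, NK cells and neutrophils were above the median on every array too, for example 8 to 9 of 9 B cell genes. The control and LPS arrays had a median of 4.14 each, and 18249 of the 33649 probe sets on both arrays (54.2%) held the same value on both, to the last digit. The step that made them equal is not given in the sources used here.

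On these arrays the class I and class II genes were bright. All 11 class I genes and 11 of 12 class II genes lay above the median of all 8 arrays. The exception was H2-Ea, whose E alpha chain is not made in C57BL/6 mice. It read 5.33, 5.07 and 3.43 in WT DCs, beside array medians of 4.64, 4.09 and 3.40. It fell short of the median on Lkb1-deficient replicate 3 and on the control and LPS arrays. Of the 23 nonclassical genes, 12 lay above the median on all arrays and 11 did not, most of the latter from the M region.

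Loss of Lkb1 was compared first. No member passed limma's test of Lkb1-deficient against WT DCs (Benjamini-Hochberg over 41345 probe sets), where 0.00967% of all probe sets passed (adjusted p = 1 for each member, and 0 of 48 at an unadjusted p under 0.05, beside 149 of all 41345 probe sets). In the fit blocked on the replicate number 0.23% of all probe sets passed and again no member did, with a lowest adjusted p of 0.114, for Tapbpl. In limma without the block the standard error was 0.63 for every probe set. WT and Lkb1-deficient values overlapped for each of the 48, whereas they were apart in 0.573% of all probe sets. The values within numbers nevertheless ran in opposite directions for the main classes. The class I median of KO minus WT was 0.21, 0.13 and 0.17 on the log2 scale within numbers 1, 2 and 3, and the class II median was −0.25, −0.37 and −0.05, while the median over all probe sets was −0.02. In bulk RNA such as this, fewer cells of a type and less RNA per cell cannot be told apart. The study reports no significant difference in MHC class II on the surface of DCs between these genotypes. That is a measure of protein, and these arrays measure RNA.

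Counted by sign, 7 of 11 class I genes were higher in Lkb1-deficient DCs within all 3 numbers and 0 were lower, and 8 of 12 class II genes were lower within all 3 and 1 was higher. Over all probe sets 13.3% were higher and 16.9% lower within all 3 numbers, and over the 12366 genes above the median signal 24% and 19.5%. Nonclassical genes were mixed, with 2 of 23 higher and 5 lower within all 3 numbers and medians of −0.14, −0.08 and 0.04. Leaving out a single array moved the class medians with the median of all probe sets. Without KO replicate 3 the class II median was 0.22 beside 0.31 over all probe sets, without WT replicate 1 it was 0.08 beside 0.19, and without WT replicate 3 the class I median was −0.22 beside −0.35. Without KO replicate 1 the class I median was −0.03 beside −0.23. With a whole number left out, class I medians stayed at 0.07 to 0.17 and class II medians at −0.30 to −0.14.

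**Figure D1:**
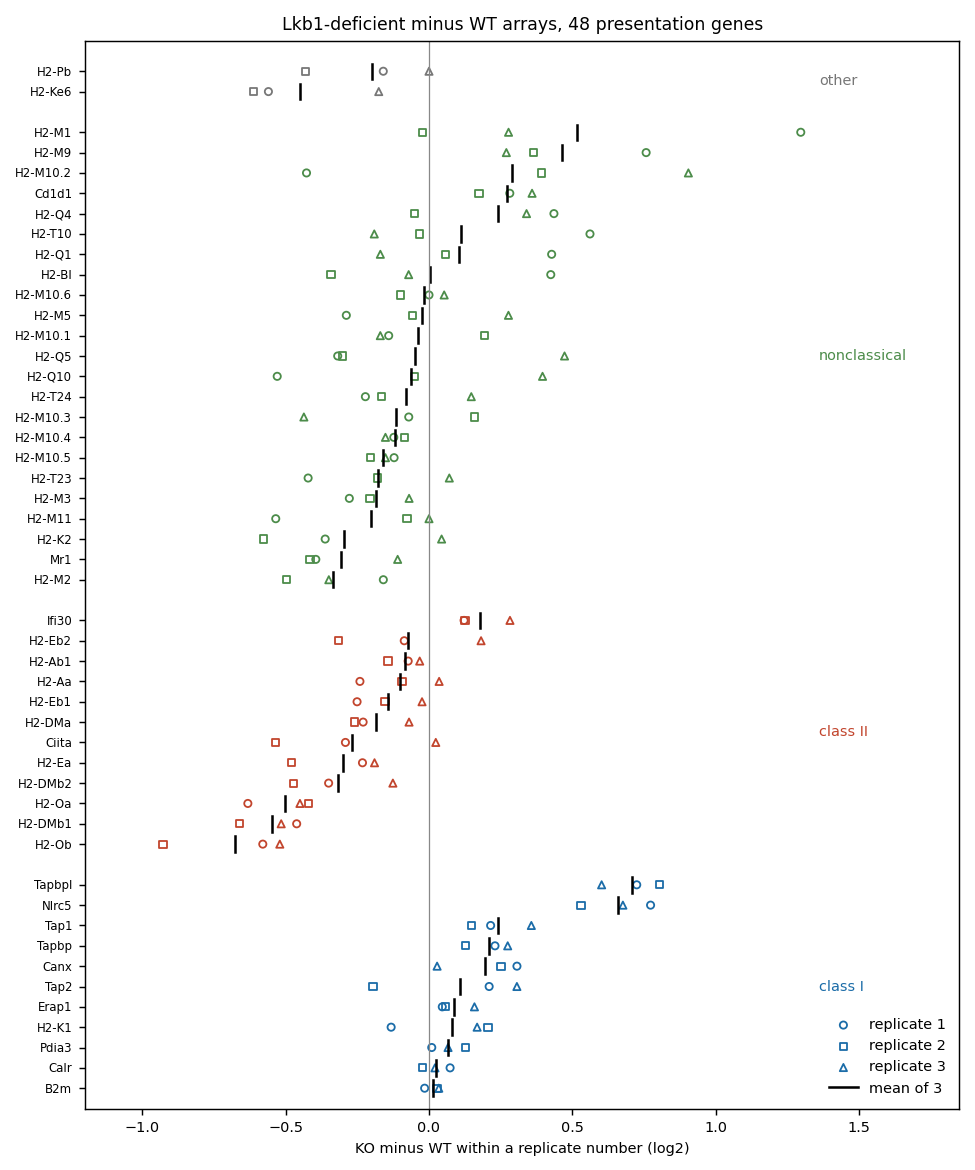
KO minus WT (log2) within replicate numbers 1, 2 and 3 for the 48 genes, grouped by class and ordered by their mean (black bar). Symbols for Nlrc5 and Tapbpl lie between 0.53 and 0.80, to the right of 0, and those for H2-Oa, H2-Ob and H2-DMb1 between −0.93 and −0.42, while nonclassical genes fall on both sides.

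Among class I genes, the transactivator and a tapasin relative stood at the upper end. Nlrc5 read 7.98, 7.57 and 6.58 in WT DCs and 8.76, 8.10 and 7.26 in Lkb1-deficient DCs, with 7.49 on the control and 8.78 on the LPS array. Each Lkb1-deficient value was above the WT value of its number, by 0.77, 0.53 and 0.68, but the groups overlapped, since WT replicates 1 and 2 lay above Lkb1-deficient replicate 3. Tapbpl, which encodes the peptide editor TAPBPR, read 7.08, 6.83 and 6.03 in WT DCs and 7.81, 7.63 and 6.63 in Lkb1-deficient DCs, with 6.81 on the control and 7.98 on the LPS array. It showed the same order in each number, with differences of 0.72, 0.80 and 0.60. These were the only 2 members at least 1.5-fold higher with an unadjusted p under 0.05 in limma with the block (adjusted p = 0.14 for Nlrc5 and 0.114 for Tapbpl), beside 1.53% of all probe sets.

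The classical class I molecule itself differed little. H2-K1, the K heavy chain, read 11.24, 10.22 and 9.32 in WT DCs and 11.10, 10.43 and 9.49 in Lkb1-deficient DCs, with 10.35 on the control and 11.17 on the LPS array. B2m, its light chain, read 12.65, 13.05 and 11.90 in WT DCs and 12.63, 13.08 and 11.94 in Lkb1-deficient DCs, with 12.82 on the control and 12.99 on the LPS array. Within numbers H2-K1 went both ways, by −0.13, 0.21 and 0.17, and B2m by −0.02, 0.03 and 0.03. On WT and Lkb1-deficient replicate 1 the B2m value was the highest of any probe set. Whether so bright a signal could still show a rise was not tested. The WT arrays spread over more than 1 log2 unit for both genes, far more than the genotypes differed, but this spread includes the differences in array level.

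The TAP transporter carries peptides into the endoplasmic reticulum. Tap1 read 9.10, 9.41 and 8.28 in WT DCs and 9.32, 9.55 and 8.63 in Lkb1-deficient DCs, with 9.42 on the control and 10.39 on the LPS array. Tap2 read 7.28, 6.68 and 5.82 in WT DCs and 7.49, 6.48 and 6.13 in Lkb1-deficient DCs, with 6.37 on the control and 7.55 on the LPS array. Tapbp, which encodes tapasin, read 9.27, 9.06 and 8.35 in WT DCs and 9.50, 9.18 and 8.63 in Lkb1-deficient DCs, with 8.83 on the control and 9.70 on the LPS array. Tap1 and Tapbp were higher within each number and Tap2 was lower within number 2. A second, dimmer probe set of Tapbp went both ways, by −0.06, −0.12 and 0.21 within the numbers. The chaperones Canx (calnexin), Calr (calreticulin) and Pdia3 (ERp57) and the trimming peptidase Erap1 had mean differences between 0.02 and 0.20.

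**Figure D2:**
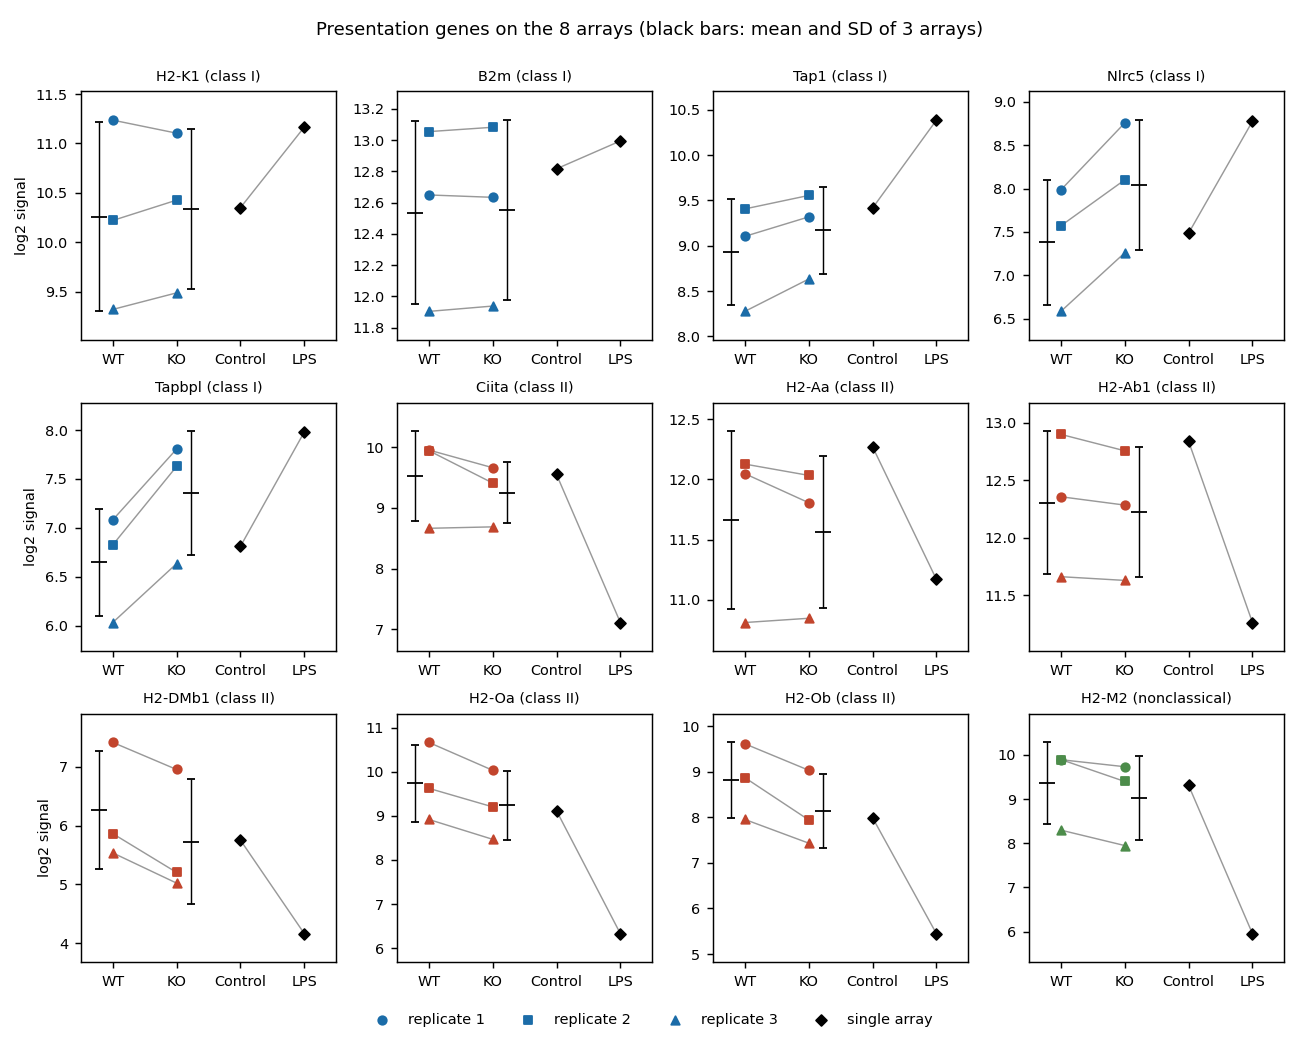
Log2 signal of 12 members on the WT and KO arrays (symbols by replicate number, lines join equal numbers, black bars give the mean and SD of 3 arrays) and on the single control and LPS arrays (diamonds). The lines of Nlrc5 and Tapbpl run upward and those of H2-Oa, H2-Ob and H2-DMb1 downward in each number, and the LPS diamonds of the class II genes lie below the control diamonds.

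Among class II genes both H2-O chains and H2-DMb1 had the lowest mean differences. H2-Oa, the alpha chain of H2-O, read 10.66, 9.62 and 8.92 in WT DCs and 10.03, 9.20 and 8.47 in Lkb1-deficient DCs, with 9.11 on the control and 6.33 on the LPS array. H2-Ob, its beta chain, read 9.61, 8.87 and 7.95 in WT DCs and 9.03, 7.94 and 7.43 in Lkb1-deficient DCs, with 7.99 on the control and 5.45 on the LPS array. Both chains were lower within each number, H2-Oa by −0.63, −0.42 and −0.45 and H2-Ob by −0.58, −0.93 and −0.52, and for both the LPS array lay below all other arrays. H2-Ob was the only member at least 1.5-fold lower with an unadjusted p under 0.05 in limma with the block (adjusted p = 0.172), beside 1.42% of all probe sets.

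H2-DM has an alpha chain and a pair of alternative beta chains. H2-DMa read 11.32, 9.83 and 8.85 in WT DCs and 11.09, 9.57 and 8.78 in Lkb1-deficient DCs, with 9.73 on the control and 7.74 on the LPS array. H2-DMb1 read 7.42, 5.86 and 5.54 in WT DCs and 6.96, 5.20 and 5.02 in Lkb1-deficient DCs, with 5.75 on the control and 4.16 on the LPS array. H2-DMb2 read 10.33, 8.63 and 7.80 in WT DCs and 9.98, 8.16 and 7.68 in Lkb1-deficient DCs, with 8.65 on the control and 6.90 on the LPS array. All 3 chains were lower in Lkb1-deficient DCs within each number, H2-DMb1 by −0.46, −0.66 and −0.52 (limma with the block, adjusted p = 0.181). The beta chain genes are neighbours and close copies, so their probes may not tell them apart fully.

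A and E are the classical class II molecules of mice, and E beta chains lack their E alpha partner in this strain. H2-Aa, the A alpha chain, read 12.05, 12.13 and 10.81 in WT DCs and 11.81, 12.03 and 10.85 in Lkb1-deficient DCs, with 12.27 on the control and 11.17 on the LPS array. H2-Ab1, the A beta chain, read 12.36, 12.90 and 11.66 in WT DCs and 12.28, 12.76 and 11.63 in Lkb1-deficient DCs, with 12.84 on the control and 11.26 on the LPS array. H2-Ab1 was lower within each number, by −0.07, −0.14 and −0.03, and H2-Aa was not lower in number 3. H2-Eb1, the E beta chain, read 11.87, 11.77 and 10.55 in WT DCs and 11.62, 11.61 and 10.52 in Lkb1-deficient DCs, with 11.57 on the control and 10.41 on the LPS array. H2-Eb2, a further E beta gene, read 10.82, 9.87 and 8.51 in WT DCs and 10.73, 9.55 and 8.69 in Lkb1-deficient DCs, with 9.36 on the control and 8.10 on the LPS array. Mean differences of these 4 chains lay between −0.14 and −0.07, within the spread of the WT arrays. Those of the H2-O and H2-DM chains also lay within it, and this spread includes the differences in array level. H2-Ea, the dim E alpha gene, read 5.10, 4.59 and 3.24 in Lkb1-deficient DCs and 4.11 on both the control and the LPS array.

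Ciita read 9.95, 9.94 and 8.66 in WT DCs and 9.66, 9.41 and 8.69 in Lkb1-deficient DCs, with 9.55 on the control and 7.11 on the LPS array. Its difference was −0.29, −0.53 and 0.02 within numbers 1, 2 and 3, so number 3 did not share the sign of the others. Ifi30, the thiol reductase GILT that unfolds antigens in endosomes, was the class II member that was higher within each number, by 0.12, 0.13 and 0.28.

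At an unadjusted p under 0.05 in limma with the block, 4 members were higher and 8 lower, beside 5.21% and 6.22% of all probe sets. The higher ones were Nlrc5, Tapbpl, Cd1d1 and the dim H2-M9. The lower ones were the class II genes H2-Oa, H2-Ob, H2-DMb1, H2-DMb2 and H2-Ea, the nonclassical H2-M2 and Mr1, and H2-Ke6, which encodes a steroid dehydrogenase and shares only its place with the MHC. None of the 12 passed after adjustment over all probe sets. B cells also make class II and H2-O. Within number 1 the mean log2 value of 9 B cell genes was higher after loss of Lkb1 (7.65 against 7.23). It was lower within number 2 (5.74 against 6.28) and number 3 (7.42 against 8.09). Of these 9 genes 0 were lower and 0 higher within all 3 numbers. For 15 DC genes the means ran from 7.54 to 9.19 in WT DCs and from 7.57 to 9.0 in Lkb1-deficient DCs. Of these 15 genes 8 were lower and 5 higher within all 3 numbers. Among the lower DC genes, Cd4, which marks a subset of splenic DCs, differed by −1.33, −1.54 and −0.58 within numbers 1, 2 and 3, with WT and Lkb1-deficient arrays apart, and Clec4a4, a marker of CD8- splenic DCs, by −0.99, −1.27 and −0.57. Cd8a was lower too, by −0.31, −0.20 and −0.04, as was Xcr1, by −0.24, −0.19 and −0.13. In the same DC list Itgam, which encodes CD11b, was higher, by 0.13, 0.39 and 0.29, and Esam was mixed, at −0.16, −0.19 and 0.39. Of 11 macrophage and monocyte genes 5 were lower and 2 higher within all 3 numbers, and Adgre1, a macrophage marker, differed by −0.78, −0.81 and −1.0. Ccr2 of the same list was higher, by 0.32, 0.48 and 0.62, with WT and Lkb1-deficient arrays apart. Of 6 plasmacytoid DC genes 4 were higher and 0 lower within all 3 numbers. Beside these list counts, 24% of the genes above the median signal were higher and 19.5% lower within all 3 numbers. Over all probe sets 13.3% were higher and 16.9% lower. None of these named markers passed limma's adjusted test, and the part of cell makeup in the class II and class I differences was not tested.

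LPS was compared next, with 1 array on each side. This difference has no replicate check, so it was not tested by itself and a gene was counted when the arrays differed by at least 1.5-fold. Class II genes were lower on the LPS array and many class I genes were higher. Of 12 class II genes 10 were at least 1.5-fold lower and 0 higher, and of 11 class I genes 6 were at least 1.5-fold higher and 0 lower, beside 3.95% of all 33649 probe sets lower and 3.63% higher. Among the genes above the median signal 8.6% were lower and 6.9% higher. The median LPS minus control difference was −1.58 for class II, 0.82 for class I and 0 for nonclassical genes, as it was over all probe sets. All 10 class II genes were also at least 2-fold lower, and 3 of the 6 class I genes were at least 2-fold higher.

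**Figure D3:**
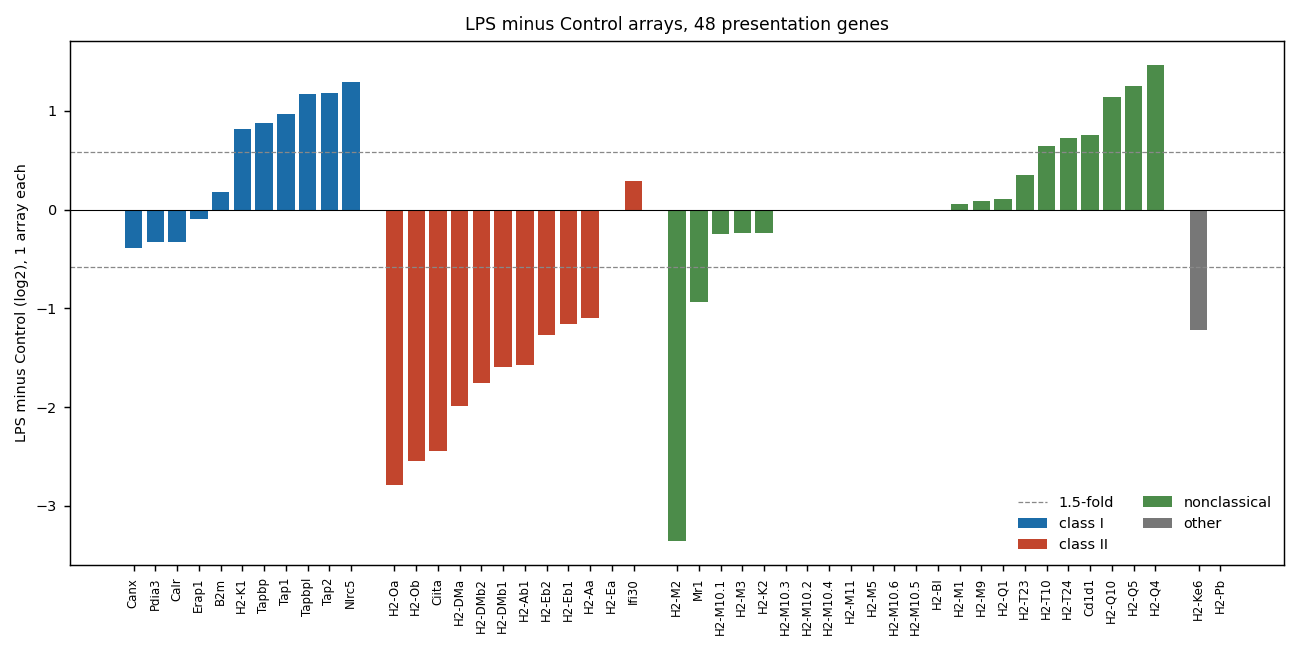
LPS minus control (log2, 1 array each) for the 48 genes, grouped by class, with dashed lines at 1.5-fold. Class II bars reach −2.78 and point downward except those of H2-Ea and Ifi30, 6 class I and 6 nonclassical bars pass the upper line, and H2-M2 reaches −3.36.

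H2-Oa was 6.89-fold lower, H2-Ob 5.83-fold, Ciita 5.43-fold and H2-DMa 3.97-fold. H2-DMb2 was 3.38-fold and H2-DMb1 3.02-fold lower. Of the A and E chains, H2-Ab1 was 2.98-fold, H2-Eb2 2.41-fold, H2-Eb1 2.24-fold and H2-Aa 2.14-fold lower. The 5 chains of the exchange factors had a median difference of −1.99 and the 5 A and E chains, H2-Ea among them, one of −1.16. H2-Ea was equal on both arrays, and Ifi30 was 1.22-fold higher. For each of the 10 lower class II genes except H2-Aa, the LPS value also lay below every WT and Lkb1-deficient value, though those arrays differ in level.

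On the class I side Nlrc5 was 2.45-fold higher, Tap2 2.26-fold, Tapbpl 2.25-fold, Tap1 1.96-fold, Tapbp 1.83-fold and H2-K1 1.76-fold. B2m was 1.13-fold higher, at 12.99 on an LPS array whose highest value was 13.08. The general chaperones of the endoplasmic reticulum went the other way without reaching 1.5-fold, with Canx 1.31-fold, Calr 1.26-fold and Pdia3 1.26-fold lower, and Erap1 was 1.07-fold lower. The class I genes that were higher were thus the heavy chain, the transactivator, TAP and the tapasins, and those below 1.5-fold were the light chain, the peptidase and the shared chaperones. The second, dimmer probe set of Tapbp differed by 0.15.

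Other markers moved on the LPS array too. Of 15 DC genes 9 were at least 1.5-fold lower and 1 higher (median −1.05), among them Itgax, which encodes CD11c, by −2.73 and Xcr1 by −3.92, while Flt3 differed by −0.10 and Zbtb46 by −0.09. Of 11 macrophage and monocyte genes 7 were lower and 0 higher (median −0.95), of 9 B cell genes 4 were lower and 0 higher (median −0.42), and of 7 neutrophil genes 3 were higher and 0 lower. Beside these counts, 8.6% of the genes above the median signal were at least 1.5-fold lower and 6.9% higher. The part of a change in cell makeup in the class II and class I values was not tested.

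Nonclassical genes split by region. Of 4 Q region genes 3 were at least 1.5-fold higher on the LPS array. H2-Q4 read 8.89, 8.23 and 6.71 in WT DCs and 9.33, 8.17 and 7.05 in Lkb1-deficient DCs, with 6.66 on the control and 8.13 on the LPS array. H2-Q5 read 8.36, 8.72 and 6.73 in WT DCs and 8.04, 8.42 and 7.20 in Lkb1-deficient DCs, with 7.59 on the control and 8.84 on the LPS array. H2-Q10, known as a secreted class I molecule of the liver, read 8.24, 8.90 and 7.57 in WT DCs and 7.71, 8.85 and 7.97 in Lkb1-deficient DCs, with 7.29 on the control and 8.43 on the LPS array. They were 2.77-fold, 2.37-fold and 2.20-fold higher after LPS, and none of these kept 1 sign between WT and Lkb1-deficient DCs within all 3 numbers. Second probe sets of H2-Q5 and H2-Q10 differed by 1.31 and 1.01, and that of H2-Q4 by 0. The probe sets shared by H2-Q6 and H2-Q8, and by H2-Q7, H2-Q8 and H2-Q9, differed by 1.75 and by 0.66 and 1.53, all higher, and that shared by H2-Q2 and H2-D1 by 0.54. Between WT and Lkb1-deficient DCs the H2-Q6 and H2-Q8 probe set was higher within all 3 numbers, by 0.24, 0.14 and 0.14. Those of H2-Q7, H2-Q8 and H2-Q9 were too, by 0.09, 0.17 and 0.14 and by 0.31, 0.13 and 0.56. Their lowest adjusted p in limma with the block was 0.415. That shared by H2-Q2 and H2-D1 differed by −0.29, −0.02 and 0.13.

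Of 4 T region genes 2 were at least 1.5-fold higher. H2-T24 read 6.89, 6.59 and 5.64 in WT DCs and 6.67, 6.42 and 5.79 in Lkb1-deficient DCs, with 6.56 on the control and 7.28 on the LPS array. H2-T10, a close relative of the γδ T cell ligand H2-T22, read 5.80, 5.63 and 5.26 in WT DCs and 6.36, 5.60 and 5.07 in Lkb1-deficient DCs, with 5.32 on the control and 5.97 on the LPS array. The probe set shared by H2-T22 and H2-T9 differed by 1.54. H2-T23, which encodes Qa-1, the ligand of NKG2A on NK cells, was 1.27-fold higher, below 1.5-fold.

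The nonclassical genes outside the H2 region differed in direction. Cd1d1, which shows lipids to NKT cells, read 6.36, 6.79 and 5.38 in WT DCs and 6.64, 6.96 and 5.74 in Lkb1-deficient DCs, with 6.04 on the control and 6.79 on the LPS array. Mr1, which shows vitamin B metabolites to MAIT cells, read 6.66, 6.84 and 6.01 in WT DCs and 6.27, 6.42 and 5.90 in Lkb1-deficient DCs, with 6.30 on the control and 5.37 on the LPS array. Cd1d1 was higher within all 3 numbers (0.28, 0.17 and 0.36) and 1.68-fold higher after LPS, and Mr1 was lower within all 3 (−0.39, −0.41 and −0.11) and 1.91-fold lower after LPS.

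In the M region 7 of 12 genes were equal on the control and LPS arrays, beside 54.2% of all probe sets. Only H2-M2 differed by 1.5-fold or more. H2-M2 read 9.89, 9.89 and 8.30 in WT DCs and 9.73, 9.40 and 7.95 in Lkb1-deficient DCs, with 9.31 on the control and 5.95 on the LPS array. It was thus well above the array median in resting DCs and differed by −3.36 after LPS, the largest of the 48 differences between these arrays, and it was lower in Lkb1-deficient DCs within each number, by −0.16, −0.50 and −0.35. H2-M3, which shows formylated bacterial peptides, was also above the array median and differed by −0.24 after LPS. H2-Ke6, outside the MHC family, read 9.11, 7.71 and 6.85 in WT DCs and 8.55, 7.09 and 6.68 in Lkb1-deficient DCs, with 6.36 on the control and 5.14 on the LPS array, 2.33-fold lower.

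The 2 comparisons share no array, so they could be set side by side. Of the 13 members at least 1.5-fold lower after LPS, 10 were lower in Lkb1-deficient DCs within all 3 numbers (76.9%, or 71.4% of the 14 lower there) and 0 were higher. Among the genes above the median signal these shares were 49.2% of 1063 and 21.7% of 2410. Of the 12 members at least 1.5-fold higher after LPS, 5 were higher within all 3 numbers (41.7%, or 50% of the 10 higher there) and 0 were lower, beside 61.9% of 853 and 17.8% of 2962. Read as shares of the genes that differed after LPS, the members lay above the background for lower genes and below it for higher genes, and read as shares of the genes that differed with Lkb1 they lay above it for both. Across the 48 genes, which share these arrays and are not independent, the mean KO minus WT difference and the LPS difference had a Pearson r of 0.68 and a Spearman rho of 0.70. For 10 of the 48 the LPS difference was 0. The correlation over all genes was not computed, so these values are not given as a trait of presentation genes.

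**Figure D4:**
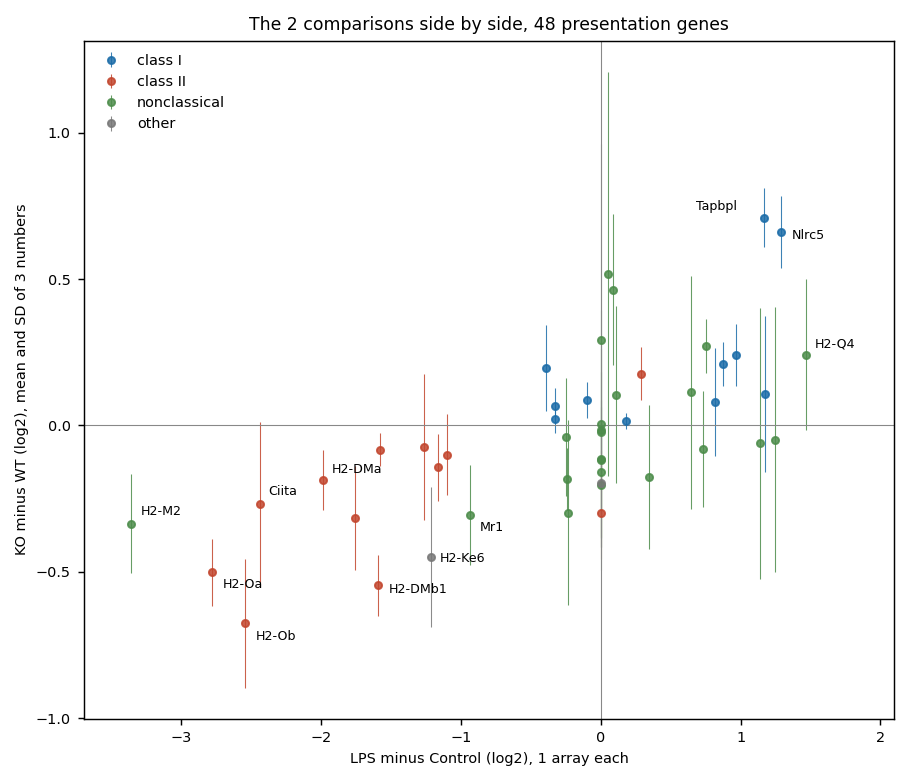
LPS minus control (log2, 1 array each) on the horizontal axis and KO minus WT (log2, mean and SD of 3 numbers) on the vertical axis for the 48 genes, coloured by class. H2-Oa, H2-Ob and H2-M2 lie at the lower left and Nlrc5 and Tapbpl at the upper right, and values run from −3.36 to 1.47 along the horizontal axis and from −0.68 to 0.71 along the vertical one.

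The difference between these effects was set up in limma on all 8 arrays. The control and LPS arms hold 1 array each, so their spread was not measured and was assumed to be that of the other arrays. No member passed an adjusted p under 0.05 (adjusted p = 1 for each), beside 0.00297% of all probe sets, and 1 of 48, H2-M2, had an unadjusted p under 0.05, beside 94 of all 33649 probe sets. In a fit with a block on the replicate number 7 of 48 members and 0.981% of all probe sets were past the adjusted threshold, but that fit lends these lone arrays the small spread of the same-numbered pairs, and no number ties them. These 7 are therefore not given as genes that differ between LPS and loss of Lkb1.

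Within the H2 region the classes are interleaved, which the gene order of the RefSeq annotation shows. Tap1 and Tap2, with the immunoproteasome genes Psmb9 and Psmb8 beside them, lie between H2-DMb1 and H2-Ob. Along this stretch LPS minus control went from −2.78 at H2-Oa and −1.59 at H2-DMb1 to 0.36, 0.97, 0.45 and 1.18 at Psmb9, Tap1, Psmb8 and Tap2 and back to −2.54 at H2-Ob. KO minus WT showed the same order of signs, with −0.50, −0.55, 0.15, 0.24, 0.31, 0.11 and −0.68. Neighbours therefore differed in sign in both comparisons.

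**Figure D5:**
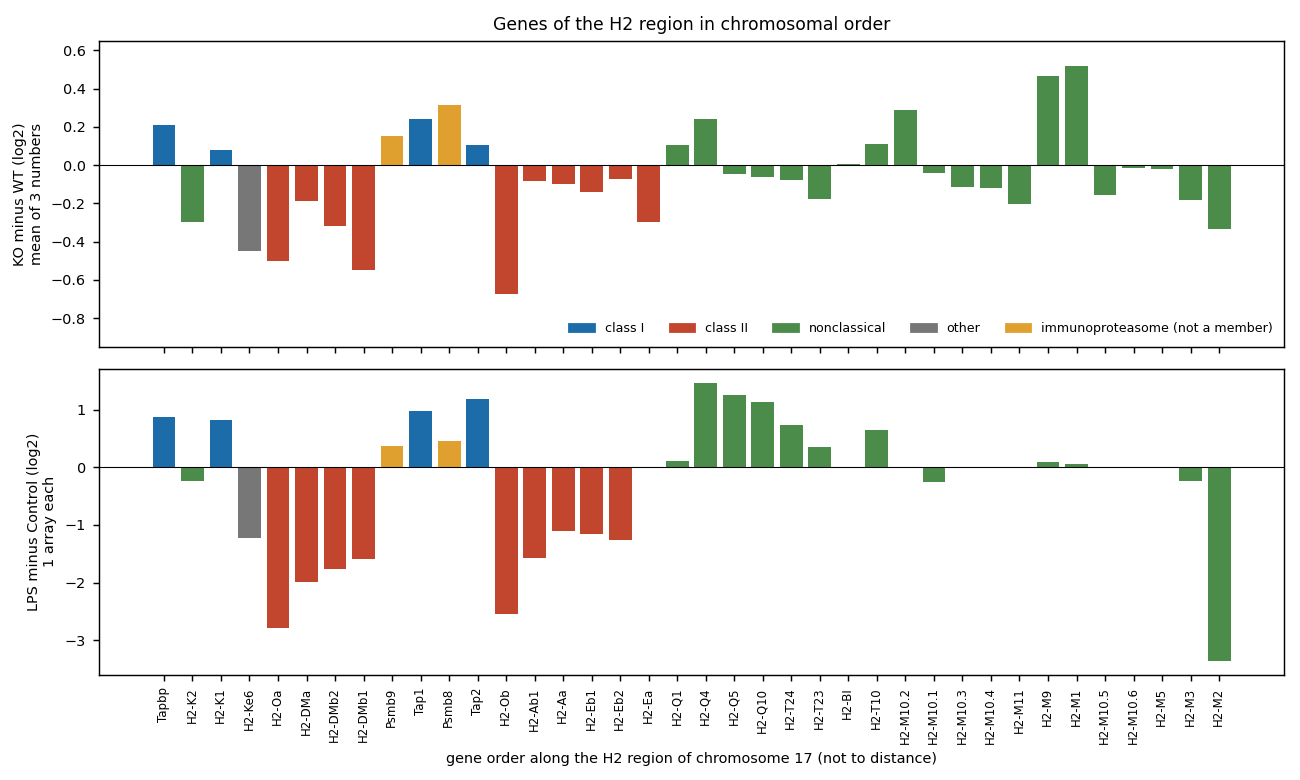
KO minus WT (log2, mean of 3 numbers, top) and LPS minus control (log2, 1 array each, bottom) for genes of the H2 region in chromosomal order, without regard to distance. The bars of Psmb9, Tap1, Psmb8 and Tap2 point upward between downward runs of class II genes in both panels.

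Of 25 further genes of the pathway 22 had a probe set of their own, and none passed limma's test in Lkb1-deficient DCs. Within all 3 numbers 12 were higher and 3 lower, beside 24% and 19.5% of the genes above the median signal and 13.3% and 16.9% of all probe sets. All 5 genes of the immunoproteasome and its activator (Psmb8, Psmb9, Psmb10, Psme1 and Psme2), which cut peptides for class I, were higher within each number, with a median of 0.25, and Psmb10 and Psme2 were at least 1.5-fold higher after LPS, by 1.10 and 0.75. Irf1, a transcription factor of interferon responses, was higher by 0.72, 0.73 and 0.51 within the numbers and by 1.22 after LPS. Irf8, a factor of DC development that also acts on interferon-responsive genes, was higher by 0.24, 0.25 and 0.20 within the numbers and lower by −1.55 after LPS. The 7 genes of the complex that binds class II promoters with CIITA (Rfx5, Rfxap, Rfxank, Creb1, Nfya, Nfyb and Nfyc) differed by at most 0.04 after LPS, and 5 of them were equal on both arrays, as 54.2% of all probe sets were.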

How the data were processed

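Each of 8 splenic DC samples was run on its own Mouse Gene 2.0 ST array, and the values that the authors deposited are on the log2 scale, with 1 for each probe set. The methods name GeneSpring and the submitters' notes MAS5, without saying how probes were summarised or normalized. Gene symbols came from the platform annotation, and 47 of 48 gene numbers were found in the RefSeq annotation (GRCm38.p6). No probe set was filtered. Precision is limited by how few arrays there are. The fits used limma 3.58.1 in R 4.3.3, tested on simulated data. The principal fit had no block, after the unpaired test of the methods. Deviations from the genotype means correlated at 0.85, 0.80 and 0.74 between same-numbered arrays and at −0.61 to −0.13 between others. Deviations within a genotype cancel out, so positive same-numbered values pull the others negative, and the negative values add no support. The numbers were treated as pairs in the block fit because of the same-numbered values. The pairing comes from these values, since no label states it. The p threshold was 0.05 and the fold threshold 1.5. Alternatives changed the normalization, the array level, the value added to the linear signal (16), the filter, the probe set and the arrays used. Members, lists and the rule for named genes (values on every array for the chains, transactivators and TAP genes, and for others at least 1.5-fold between LPS and control, or 1.5-fold with an unadjusted p under 0.05 in the block fit) were chosen with earlier results of these data known. Markers and pathway genes named with values were picked after their values were seen.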

Additional observations from a re-analysis of the deposited data

How the results depend on the processing

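Under every alternative run, no member passed an adjusted p under 0.05 between Lkb1-deficient and WT DCs, including the fit with the replicate number as a block (0 of 48) and the methods' t-test (0 at an unadjusted p under 0.05). The sign of the difference was unchanged in all 48 genes with 16 added to the linear value, turned in 3 after quantile normalization and in 2 after centring each array on its median, and turned in 4 to 21 with 1 array left out and in 3 to 8 of 48 with 1 pair left out. Leaving out 1 array gave class medians from −0.22 to 0.45 for class I, −0.73 to 0.22 for class II and −0.39 to 0.25 for nonclassical genes, while the median of all probe sets went from −0.35 to 0.31. It gave −1.16 to 0.026 for H2-DMb1, −1.0 to 0.39 for H2-DMb2, −0.89 to 0.23 for H2-Ea, −1.0 to 0.16 for H2-Ke6, −0.12 to 0.62 for Cd1d1 and −0.87 to 0.20 for H2-M2. In the block fit without pair 2 the class I median was 0.17. For LPS, the class II median was −1.39 with 16 added to the linear value, the class I median 0.51 with the mean of all probe sets of a gene, and the nonclassical median 0.17 above the median signal only. At 2-fold in place of 1.5-fold, 3 class I and 3 nonclassical genes were higher. For LPS minus the Lkb1 effect, 7 members were past the adjusted threshold with the replicate block and 0 without it. The block lends the lone control and LPS arrays a spread that was not measured for them, so these are not taken as differences. Other alternatives kept the LPS counts of the classes within 1 gene. Control and LPS had 1 array each, so their spread is unknown.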
